A study of Danio rerio with 12 samples.

Results

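The endothelial and vegf genes are 10 zebrafish genes that make up the growth signals of the ocular vessels and mark the cells that line them. They are the ligand genes vegfaa and vegfab, the VEGF receptor genes kdr, kdrl, flt1 and flt4, the Tie receptor genes tie1 and tek, and the adhesion genes cdh5 and pecam1. Each was taken by its symbol from a table of 25432 genes, and all 10 were found, each with 1 entry. RNA was sequenced from 6 akr7a3-/- and 6 akr7a3+/+ eyes of adult zebrafish, 1 library an eye, from polyadenylated RNA with a strand-specific kit. In the akr7a3-/- line, CRISPR/Cas9 editing left an insertion in the first exon that shifts the reading frame, and the akr7a3+/+ fish have the intact gene. The study made the akr7a3-/- line in the Tg(fli1:EGFP) background, in which the fli1 promoter drives a green fluorescent protein in endothelial cells. Its methods for RNA sequencing do not say whether the sequenced eyes of each genotype carry this transgene. The labels give no age, sex or time of collection, and they do not say whether each eye came from a different fish, so that the p-values measure the spread between these eyes. The study asked whether loss of this aldehyde-reducing enzyme alters the vessels of the eye, and the comparison here asks whether the transcripts of the vessel genes differ between the genotypes.

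Blood vessels grow and are kept in place by 2 receptor systems on the endothelial cell. VEGF-A, encoded in zebrafish by vegfaa and vegfab, is released by surrounding tissue and binds receptors on the endothelium, where kdr and kdrl carry most of the growth signal and flt1 acts largely as a trap for the ligand. The angiopoietins act on Tie2, encoded by tek, and tie1 encodes the related receptor Tie1. VE-cadherin and PECAM-1, the products of cdh5 and pecam1, hold neighbouring endothelial cells together. In the adult eye these cells line the vessels of the retina, the choroid and the iris.

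Abundances are given as FPKM, the fragments on a gene scaled by its length and by all fragments of the eye, so that levels can be set side by side between genes. The totals behind them ran between 22237970 and 35016388 reads in akr7a3-/- eyes and between 21194609 and 34935342 reads in akr7a3+/+ eyes. As a check of the labels, akr7a3 itself was at 0.348 ± 0.0621 FPKM in akr7a3-/- eyes and 2.05 ± 0.541 FPKM in akr7a3+/+ eyes (SD, n = 6 per genotype), with every akr7a3-/- eye below every akr7a3+/+ eye. The rod opsin gene rho stood at 22078 FPKM or more in akr7a3-/- eyes and at 11164 FPKM or more in akr7a3+/+ eyes, so the libraries carry the label of eye. The akr7a3-/- eye 1 stood apart in the lens: its 15 lens markers summed to 156 FPKM, against 1992 FPKM or more in the other akr7a3-/- eyes and 3325 FPKM or more in the akr7a3+/+ eyes.

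None of the 10 genes passed the test for a difference between the genotypes. Of the 18473 genes that were tested with limma on log2(FPKM + 0.5), 2133 had a Benjamini-Hochberg adjusted p under 0.05, which is 11.5%. Of the 10 vessel genes 0 passed, 0 of them higher beside 5.78% of all tested genes and 0 lower beside 5.77%, and 0 passed with limma's voom on the reads recovered from the table. An unadjusted p under 0.05 from limma was reached by 2 of the 10, cdh5 and kdr, beside 26.2% of all tested genes. In 0 of the 10 did all eyes of one genotype lie outside the range of the other, beside 6.62% of all tested genes. The fold changes were above 0 for 5 genes and below 0 for 5, with a median log2 fold change of -0.01 for the 10 genes and also -0.01 over all tested genes. In whole-eye RNA, a change in the number of endothelial cells and a change of RNA in each of them cannot be told apart.

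**Figure D1:**
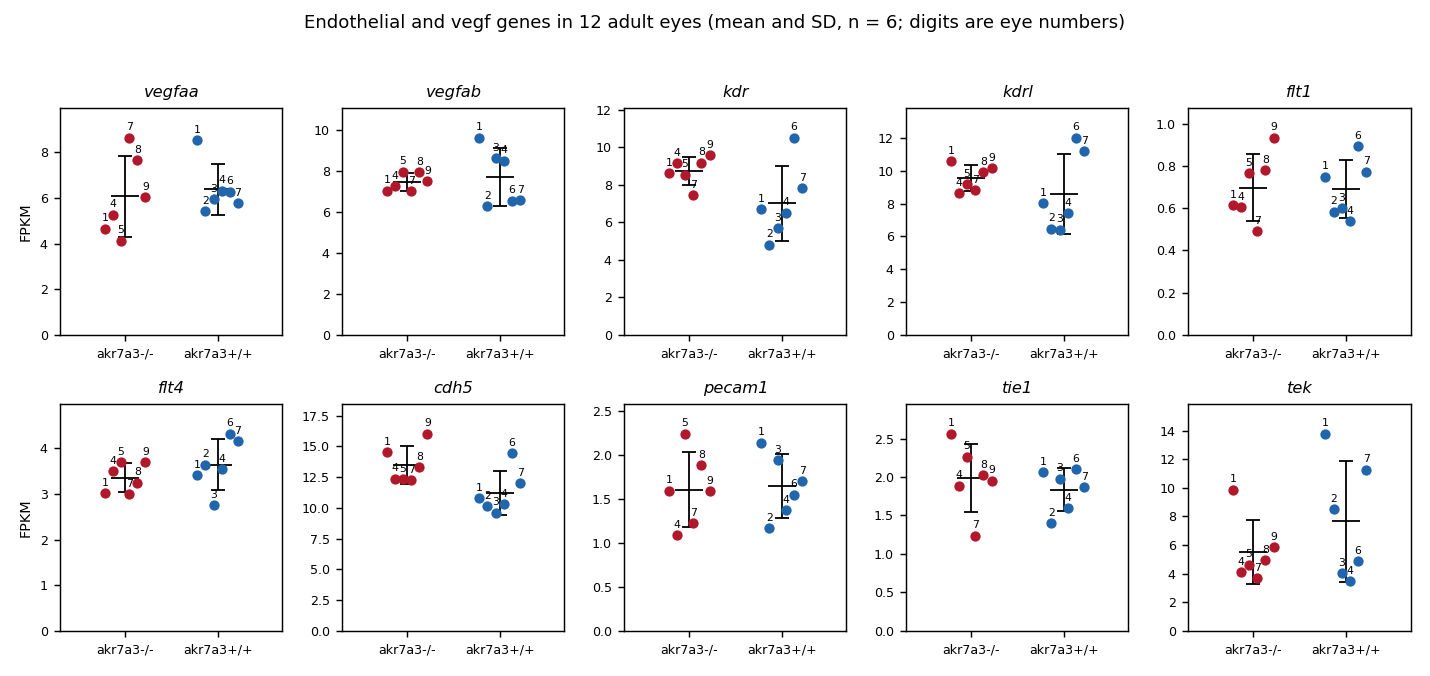
FPKM (vertical axes, each starting at 0) of the 10 endothelial and vegf genes in the 6 akr7a3-/- eyes (red, left) and the 6 akr7a3+/+ eyes (blue, right) of each panel; each point is 1 eye with its number, and the black bars give the mean and SD. The genotypes overlap in every panel, and the akr7a3+/+ eye 6 is the highest blue point for kdr, kdrl, flt1, flt4, cdh5 and tie1.

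Neither ligand gene differed between the genotypes by more than its eyes scattered. vegfaa had a lowest value of 4.13, a median of 5.64 and a highest value of 8.63 FPKM in akr7a3-/- eyes, against 5.42, 6.11 and 8.53 FPKM in akr7a3+/+ eyes. The ranges overlapped, and the akr7a3-/- eyes held both the highest value, in eye 7, and the 3 lowest, in eyes 1, 4 and 5. The means were 6.06 ± 1.76 FPKM in akr7a3-/- eyes and 6.37 ± 1.11 FPKM in akr7a3+/+ eyes (SD, n = 6 per genotype), and the log2 fold change was -0.10 (standard error, SE, 0.16; limma adjusted p = 0.763), with a 95% interval of 0.732 to 1.20 for the fold.

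vegfab, the second copy of the ligand gene, ran between 7.03 and 7.98 FPKM in akr7a3-/- eyes with a median of 7.38 FPKM, and between 6.30 and 9.63 FPKM in akr7a3+/+ eyes with a median of 7.56 FPKM. All akr7a3-/- eyes fell inside the range of the akr7a3+/+ eyes, where 3 eyes were above and 3 below them. The coefficient of variation was 5.71% in akr7a3-/- and 18.1% in akr7a3+/+ eyes for vegfab, and 29.0% in akr7a3-/- and 17.4% in akr7a3+/+ eyes for vegfaa. The difference in spread between genotypes was not tested. The log2 fold change of vegfab was -0.03 (SE 0.10, limma adjusted p = 0.898), and its fold had a 95% interval of 0.841 to 1.14.

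To compare the copies within each eye, the log2 ratio of vegfaa over vegfab was taken. It was -0.32 ± 0.40 in akr7a3-/- eyes and -0.25 ± 0.17 in akr7a3+/+ eyes (SD, n = 6 per genotype). The difference of -0.07 did not exceed the scatter of the eyes (exact two-sided permutation test, p = 0.690; 0.690 after adjustment over the 3 ratios tested), with a 95% interval of -0.46 to 0.33.

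Among the VEGF receptors, kdr had the largest difference. kdr, a gene for VEGF receptor 2, ran between 7.45 and 9.56 FPKM in akr7a3-/- eyes with a median of 8.87 FPKM, and between 4.80 and 10.5 FPKM in akr7a3+/+ eyes with a median of 6.60 FPKM. All 6 akr7a3-/- eyes were above the median of the akr7a3+/+ eyes, and 4 akr7a3+/+ eyes were below every akr7a3-/- eye, but the akr7a3+/+ eye 6 was the highest of all. The means were 8.75 ± 0.740 FPKM in akr7a3-/- eyes and 7.002 ± 1.99 FPKM in akr7a3+/+ eyes (SD, n = 6 per genotype), with a log2 fold change of 0.34 (SE 0.14, limma unadjusted p = 0.0366 and adjusted p = 0.157). The fold had a 95% interval of 1.02 to 1.57.

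kdrl, a related VEGF receptor gene and the one whose promoter is widely used to label zebrafish endothelium, ran between 8.63 and 10.6 FPKM in akr7a3-/- eyes with a median of 9.58 FPKM. In akr7a3+/+ eyes it ran between 6.42 and 12.02 FPKM with a median of 7.74 FPKM. As for kdr, all 6 akr7a3-/- eyes were above the akr7a3+/+ median and 4 akr7a3+/+ eyes were below every akr7a3-/- eye, while the akr7a3+/+ eyes 6 and 7 were above every akr7a3-/- eye. The log2 fold change was 0.18 (SE 0.15, limma adjusted p = 0.473), and the fold had a 95% interval of 0.911 to 1.41.

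The log2 ratio of kdrl over kdr was 0.12 ± 0.13 in akr7a3-/- eyes and 0.28 ± 0.14 in akr7a3+/+ eyes (SD, n = 6 per genotype). This difference of -0.16 did not pass the threshold (two-sided exact permutation test, p = 0.0714; 0.214 after adjustment over the 3 ratios), and its 95% interval ran from -0.33 to 0.01. The coefficient of variation of kdr was 8.46% in akr7a3-/- and 28.4% in akr7a3+/+ eyes, and that of kdrl was 8.23% in akr7a3-/- and 28.2% in akr7a3+/+ eyes.

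flt1, which encodes VEGF receptor 1, was the lowest of the 10 genes in both genotypes and the least deeply read, with 70 to 150 reads an eye. It ran between 0.490 and 0.934 FPKM in akr7a3-/- eyes with a median of 0.690 FPKM, and between 0.537 and 0.894 FPKM in akr7a3+/+ eyes with a median of 0.675 FPKM. The akr7a3-/- eyes thus held both the highest and the lowest value. The log2 fold change was 0.01 (SE 0.12, limma adjusted p = 0.978), and the fold had a 95% interval of 0.842 to 1.20. One value a gene does not separate the soluble from the membrane-bound form of this receptor.

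flt4 encodes VEGF receptor 3, the receptor for Vegfc that lymphatic and sprouting endothelium carries. It ran between 2.99 and 3.70 FPKM in akr7a3-/- eyes with a median of 3.38 FPKM, and between 2.76 and 4.32 FPKM in akr7a3+/+ eyes with a median of 3.59 FPKM. The akr7a3-/- eyes lay inside the akr7a3+/+ range. The log2 fold change was -0.09 (SE 0.10, limma adjusted p = 0.598), and the fold had a 95% interval of 0.808 to 1.09.

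cdh5, the gene for VE-cadherin of the endothelial junction, was the most abundant of the 10 in both genotypes. It ran between 12.3 and 16.1 FPKM in akr7a3-/- eyes with a median of 12.9 FPKM, and between 9.62 and 14.4 FPKM in akr7a3+/+ eyes with a median of 10.6 FPKM. Of the akr7a3+/+ eyes 5 were below every akr7a3-/- eye, and the akr7a3+/+ eye 6 was above 4 of the 6 akr7a3-/- eyes. The means were 13.5 ± 1.53 FPKM in akr7a3-/- eyes and 11.2 ± 1.77 FPKM in akr7a3+/+ eyes (SD, n = 6 per genotype), with a log2 fold change of 0.26 (SE 0.10, limma unadjusted p = 0.0219 and adjusted p = 0.115). The fold had a 95% interval of 1.03 to 1.39, and the values rest on 1381 to 3165 reads an eye.

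pecam1, which encodes a second adhesion protein of the endothelial surface that platelets and leukocytes also carry in mammals, ran between 1.09 and 2.24 FPKM in akr7a3-/- eyes with a median of 1.59 FPKM. In akr7a3+/+ eyes it ran between 1.17 and 2.14 FPKM with a median of 1.63 FPKM. The ranges were nearly the same, with a log2 fold change of -0.04 (SE 0.15, limma adjusted p = 0.914) and a 95% interval of 0.779 to 1.22 for the fold.

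tie1, the other Tie receptor gene, ran between 1.24 and 2.56 FPKM in akr7a3-/- eyes with a median of 1.99 FPKM, and between 1.40 and 2.1 FPKM in akr7a3+/+ eyes with a median of 1.93 FPKM. The akr7a3-/- eyes again held both extremes. The log2 fold change was 0.08 (SE 0.13, limma adjusted p = 0.757), and the fold had a 95% interval of 0.866 to 1.29.

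tek varied more between eyes than any of the other 9 genes. It ran between 3.71 and 9.87 FPKM in akr7a3-/- eyes with a median of 4.78 FPKM, and between 3.50 and 13.8 FPKM in akr7a3+/+ eyes with a median of 6.71 FPKM. A few eyes of each genotype were well above the rest. The akr7a3-/- eye 1 had 9.87 FPKM and the other 5 had at most 5.86 FPKM, while the akr7a3+/+ eyes 1, 2 and 7 had 13.8, 8.54 and 11.3 FPKM and the other 3 had at most 4.88 FPKM. The coefficient of variation was 40.8% in akr7a3-/- and 55.2% in akr7a3+/+ eyes. The log2 fold change was -0.34 (SE 0.33, limma adjusted p = 0.552), and the 95% interval of the fold, 0.484 to 1.28, was the widest of the 10.

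The log2 ratio of tek over tie1 followed tek, with 1.23 ± 0.32 in akr7a3-/- eyes and 1.65 ± 0.77 in akr7a3+/+ eyes (SD, n = 6 per genotype). The difference of -0.42 did not exceed the scatter of the eyes (exact two-sided permutation test, p = 0.232; 0.347 after adjustment over the 3 ratios), and its 95% interval ran from -1.18 to 0.33.

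**Figure D2:**
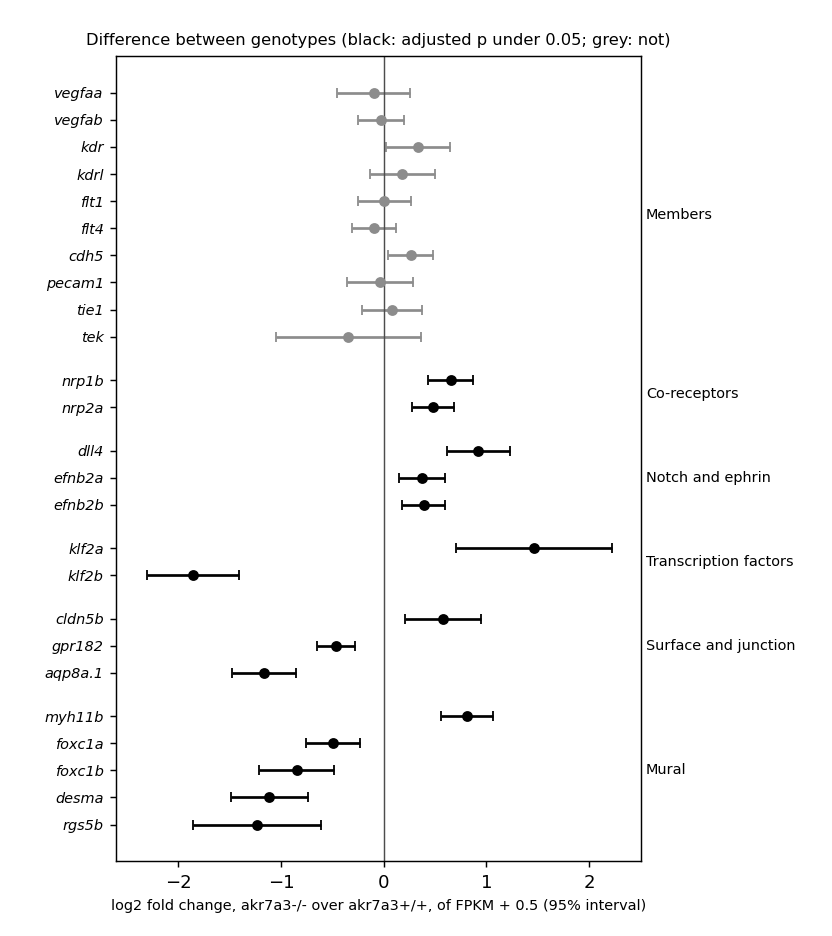
Log2 fold change of akr7a3-/- over akr7a3+/+ eyes, of FPKM + 0.5, with its 95% interval from limma (horizontal axis) for the 10 endothelial and vegf genes and for the 15 genes of other vessel lists that passed the test. The 10 genes (grey) lie between -0.34 and 0.34 on this scale, and the widest interval among them is that of tek.

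The order of the mean levels in akr7a3-/- eyes was cdh5, kdrl, kdr, vegfab, vegfaa, tek, flt4, tie1, pecam1 and flt1. In akr7a3+/+ eyes it was cdh5, kdrl, vegfab, tek, kdr, vegfaa, flt4, tie1, pecam1 and flt1. The upper end and the lower end of the order were thus the same in both genotypes. In akr7a3-/- eyes the ranges of cdh5 and kdrl did not overlap, whereas kdrl, kdr, vegfab and vegfaa each overlapped the next gene in the order. In akr7a3+/+ eyes the ranges of all neighbours from cdh5 to vegfaa overlapped, and kdrl was above vegfab in 3 of the 6 eyes, as vegfab was above tek. vegfaa was above flt4 and pecam1 above flt1 in 6 of 6 eyes of each genotype. tek was above flt4 in 6 of 6 akr7a3-/- eyes, while the akr7a3+/+ eye 4 had 3.50 FPKM of tek and 3.55 FPKM of flt4.

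The genes also differed in which eyes were high. After each eye's log2(FPKM + 0.5) was set against the mean of its genotype, kdr, kdrl, flt1, flt4 and cdh5 varied together over the 12 eyes: their 10 pairs had Pearson's r between 0.62 and 0.88 and Spearman's rho between 0.54 and 0.89. The highest r was that of kdr with kdrl (r = 0.88, rho = 0.87, and r = 0.78 without the 2 eyes farthest from the median of kdr), followed by kdrl with cdh5 (r = 0.87, rho = 0.89, and r = 0.80 without the 2 farthest eyes). Leaving out the 2 farthest eyes lowered r to 0.29 for flt4 with cdh5 and to 0.36 for kdrl with flt4. These relations thus rested on those eyes. Within akr7a3-/- eyes alone, r was -0.12 for kdrl with flt4, 0.14 for flt4 with cdh5 and 0.41 for kdr with kdrl. The other pairs of the 5 genes had r between 0.51 and 0.83 there. Within akr7a3+/+ eyes alone, all pairs of the 5 genes had r between 0.64 and 0.94. These values describe 45 pairs of genes that were chosen as related, measured in the same 12 libraries, and no p is given for them.

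The ligands did not share this pattern over the 12 eyes. The 10 pairs of vegfaa or vegfab with these 5 genes had r between -0.47 and 0.00. Without the 2 farthest eyes, r was between -0.82 and 0.27. Within akr7a3-/- eyes alone, vegfab had r of 0.71 with flt1, 0.60 with flt4 and 0.45 with kdr. There it had r of 0.10 with kdrl and -0.07 with cdh5. Within akr7a3+/+ eyes alone, r of vegfab with these 5 genes lay between -0.68 and -0.21. For vegfaa, r lay between -0.47 and -0.08 in akr7a3-/- eyes and between -0.13 and 0.29 in akr7a3+/+ eyes. Over the 12 eyes, r with these 5 genes ran between -0.08 and 0.51 for pecam1 and between 0.12 and 0.56 for tie1. pecam1 and tie1 went together (r = 0.66, rho = 0.71, and r = 0.72 without the 2 farthest eyes), and tek with kdr had r = 0.00 (rho = 0.27, and r = 0.51 without the 2 farthest eyes), so that the value for tek turned on those eyes.

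A single akr7a3+/+ eye stood at the top of its genotype for most of the 10 genes. The akr7a3+/+ eye 6 was the highest of its genotype for 6 of the 10 genes, kdr, kdrl, flt1, flt4, cdh5 and tie1. The akr7a3-/- eye 9 was the highest of its genotype for 4, kdr, flt1, flt4 and cdh5, and the akr7a3-/- eye 7 was the lowest for 7, while it was the highest for vegfaa. Without the akr7a3+/+ eye 6, 2 of the 10 genes passed the test, kdr with a log2 fold change of 0.46 (limma adjusted p = 0.0206) and cdh5 with 0.33 (limma adjusted p = 0.0264). In that fit 2029 of the 18473 tested genes passed. Since this eye was the highest of its genotype for kdr and cdh5, leaving it out could only raise both fold changes. Leaving out any other single eye left both above an adjusted p of 0.1 in limma, with values of 0.145 to 0.277 for kdr and 0.116 to 0.221 for cdh5. The same eye had 872 FPKM over the 18 muscle markers, against 1246 to 2044 FPKM in the other akr7a3+/+ eyes, and 3325 FPKM over the 15 lens markers, against 5174 to 6928 FPKM. Its 34 markers of the endothelial surface and junction summed to 502 FPKM, against 383 to 450 FPKM in the other akr7a3+/+ eyes. Abundant genes weigh heavily in this sum: slc2a1a alone ran between 61.3 and 132 FPKM in akr7a3+/+ eyes. The part of muscle and lens tissue in the values of kdr and cdh5 was not tested.

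**Figure D3:**
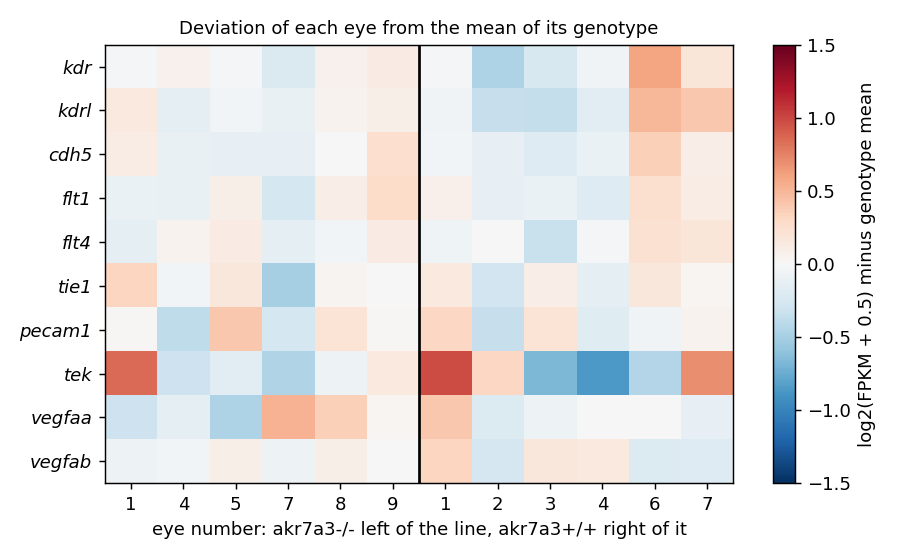
Deviation of each eye from the mean of its genotype in log2(FPKM + 0.5) (colour, red above and blue below the mean) for the 10 genes (rows) in the 6 akr7a3-/- eyes (left of the line) and the 6 akr7a3+/+ eyes (right of it). The akr7a3+/+ eye 6 is red for kdr, kdrl, cdh5, flt1, flt4 and tie1, and tek has its own pattern, with the akr7a3-/- eye 1 and the akr7a3+/+ eyes 1, 2 and 7 in the strongest red of its row.

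Of all tested genes outside the 10, those most like cdh5 over the 12 eyes were podxl (r = 0.93, rho = 0.72), b4galt2 (r = 0.91, rho = 0.77), snx9a (r = 0.90, rho = 0.76), ttf1 (r = 0.90, rho = 0.66) and alp3 (r = 0.89, rho = 0.79). Most like kdrl were CABZ01055522.1 (r = 0.94, rho = 0.96), znf366 (r = 0.93, rho = 0.88), snx9a (r = 0.92, rho = 0.92), eif4g3b (r = 0.92, rho = 0.74) and kcnc1b (r = 0.92, rho = 0.82). For eif4g3b with kdrl, r was 0.08 within akr7a3-/- eyes alone and 0.97 within akr7a3+/+ eyes alone. snx9a was named for both cdh5 and kdrl. For vegfaa they were other genes, rcan2 (r = 0.92, rho = 0.85), ykt6 (r = 0.91, rho = 0.88), si:dkey-68o6.8 (r = 0.90, rho = 0.72), gfra1b (r = 0.90, rho = 0.87) and tfr1b (r = 0.90, rho = 0.86). These are the highest of all tested genes and describe these libraries alone.

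The high and low eyes of tek were shared by a gene next to it. The annotation of the assembly GRCz12tu, which is not the build the reads were mapped to, serves here for the order of genes alone. In it ift74, a gene of transport within cilia, is a neighbour of tek. This gene was looked up after the values of tek had been seen. ift74 had 22.6 FPKM in the akr7a3-/- eye 1, against at most 16.3 FPKM in the other 5, and 32.4, 24.5 and 25.5 FPKM in the akr7a3+/+ eyes 1, 2 and 7, against at most 16.7 FPKM in the other 3. The 4 eyes with the highest tek were therefore also the 4 eyes with the highest ift74 (r = 0.94, rho = 0.85, and r = 0.88 without the 2 farthest eyes).

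rnf170, a ubiquitin ligase gene 6 places from tek, was also highest in the akr7a3+/+ eyes 1 and 7, with 10.5 and 9.13 FPKM, and the akr7a3-/- eye 1 was the highest of its genotype with 6.92 FPKM (r = 0.87 with tek). Its log2 fold change was -0.41 (limma adjusted p = 0.066). On the same side, thap1 and june, 3 and 4 places from tek, had r of 0.58 and 0.55 with tek. Values of the other genes around tek, those on its other side included, are not given here. Overlap between the reads of neighbouring genes was not tested, since the setting for strand in the counting is not given in the sources used here.

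**Figure D4:**
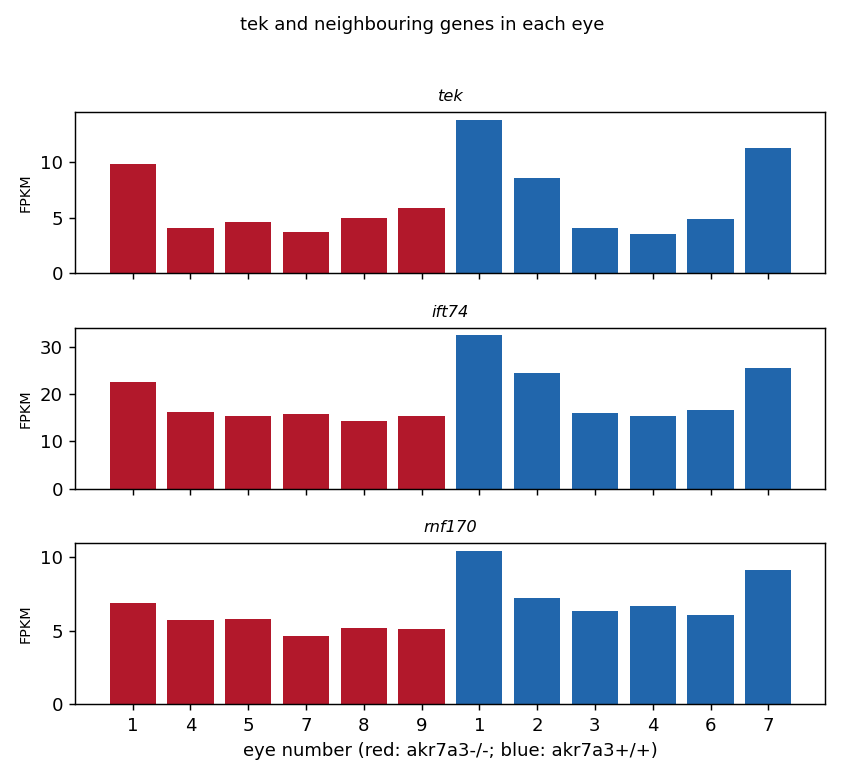
FPKM (vertical axes, starting at 0) of tek, of its neighbour ift74 and of rnf170, 6 places away, in each of the 6 akr7a3-/- eyes (red, left) and 6 akr7a3+/+ eyes (blue, right). The akr7a3-/- eye 1 and the akr7a3+/+ eyes 1, 2 and 7 are the 4 highest bars for tek and for ift74.

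Around these 10 genes, 9 lists of vessel genes were read from the same test. They hold 114 tested genes outside the 10, of which 15 changed, 8 higher and 7 lower in akr7a3-/- eyes. That share of 13.2% stands beside 11.5% of all tested genes, and the median log2 fold change was 0.07.

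The other ligands of the family did not pass. Of vegfc, vegfd, pgfb and vegfbb, 0 of 4 passed, with a median log2 fold change of 0.15. vegfd averaged 2.33 ± 0.283 FPKM in akr7a3-/- eyes and 3.05 ± 0.740 FPKM in akr7a3+/+ eyes (SD, n = 6 per genotype; limma adjusted p = 0.154), and vegfc averaged 2.08 ± 0.184 FPKM in akr7a3-/- eyes and 2.14 ± 0.440 FPKM in akr7a3+/+ eyes (limma adjusted p = 0.948). Of the 5 genes of the angiopoietin list, the ligands of Tie2 among them, 0 passed, with a median log2 fold change of -0.08. Of 13 inhibitors of vessel growth, such as the thrombospondins and class 3 semaphorins, 0 passed, with a lowest limma adjusted p of 0.138. Of the 13, 11 had a log2 fold change above 0. Their median was 0.14, beside -0.01 over all tested genes, and the set was not tested as a whole.

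A list of the neuropilin genes, for co-receptors of VEGF, and of the semaphorin receptor gene plxnd1 gave 2 rises among 5 genes, beside 5.78% of all tested genes. Both were of neuropilins, which bind VEGF and also semaphorins and which neurons carry as well. nrp1b ran between 4.81 and 7.04 FPKM in akr7a3-/- eyes with a median of 6.48 FPKM, and between 3.31 and 4.62 FPKM in akr7a3+/+ eyes with a median of 3.74 FPKM. Every akr7a3-/- eye was above every akr7a3+/+ eye, with a log2 fold change of 0.65 (SE 0.10, limma adjusted p = 0.0014).

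nrp2a ran between 4.15 and 5.48 FPKM in akr7a3-/- eyes with a median of 4.86 FPKM, and between 2.47 and 3.66 FPKM in akr7a3+/+ eyes with a median of 3.42 FPKM. The genotypes again did not overlap, with a log2 fold change of 0.48 (SE 0.09, limma adjusted p = 0.00562). Groups that did not overlap with akr7a3-/- higher were found in 3.55% of all tested genes. The copies nrp1a and nrp2b did not pass, with log2 fold changes of 0.26 and 0.01 (limma adjusted p = 0.106 and 0.960), and neither did plxnd1, with -0.33 (limma adjusted p = 0.184).

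Notch and ephrin genes set the arterial and venous identity of vessels and act in neurons too. In their list 3 of 13 genes were higher and 0 lower in akr7a3-/- eyes, beside 5.78% and 5.77% of all tested genes. dll4, the Notch ligand of arteries and sprouting tips, ran between 4.96 and 8.85 FPKM in akr7a3-/- eyes and between 2.51 and 4.27 FPKM in akr7a3+/+ eyes. The genotypes did not overlap, and the means of 6.90 ± 1.38 FPKM in akr7a3-/- eyes and 3.39 ± 0.655 FPKM in akr7a3+/+ eyes (SD, n = 6 per genotype) gave a log2 fold change of 0.92 (SE 0.14, limma adjusted p = 0.00123).

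Both ephrin-B2 genes were higher as well. efnb2b averaged 5.97 ± 0.659 FPKM in akr7a3-/- eyes and 4.45 ± 0.606 FPKM in akr7a3+/+ eyes (SD, n = 6 per genotype), without overlap (log2 fold change 0.39, limma adjusted p = 0.0204). efnb2a averaged 43.5 ± 3.73 FPKM in akr7a3-/- eyes and 33.8 ± 5.74 FPKM in akr7a3+/+ eyes, with overlap (log2 fold change 0.37, limma adjusted p = 0.0375), and its call was lost when any of 9 eyes was left out, of the 12 tried, with an adjusted p of up to 0.0814. Their receptor genes ephb4a and ephb4b had log2 fold changes of 0.09 and -0.04 (limma adjusted p = 0.587 and 0.807).

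Of 17 tested transcription factors of the endothelium 1 was higher and 1 was lower, beside 5.78% and 5.77% of all tested genes. Both that changed are copies of one gene, the flow-responsive factor klf2, which is also among the genes induced early by other stimuli. klf2a ran between 84.1 and 251 FPKM in akr7a3-/- eyes and between 24.0 and 105 FPKM in akr7a3+/+ eyes, with 5 akr7a3-/- eyes above every akr7a3+/+ eye (log2 fold change 1.46, SE 0.35, limma adjusted p = 0.0176). klf2b ran between 5.05 and 7.18 FPKM in akr7a3-/- eyes and between 16.7 and 38.7 FPKM in akr7a3+/+ eyes, without overlap (log2 fold change -1.85, SE 0.20, limma adjusted p = 0.000116). The fli1 genes, erg and tal1 did not pass: fli1a had a log2 fold change of -0.15 (limma adjusted p = 0.396) and erg of -0.10 (limma adjusted p = 0.708).

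**Figure D5:**
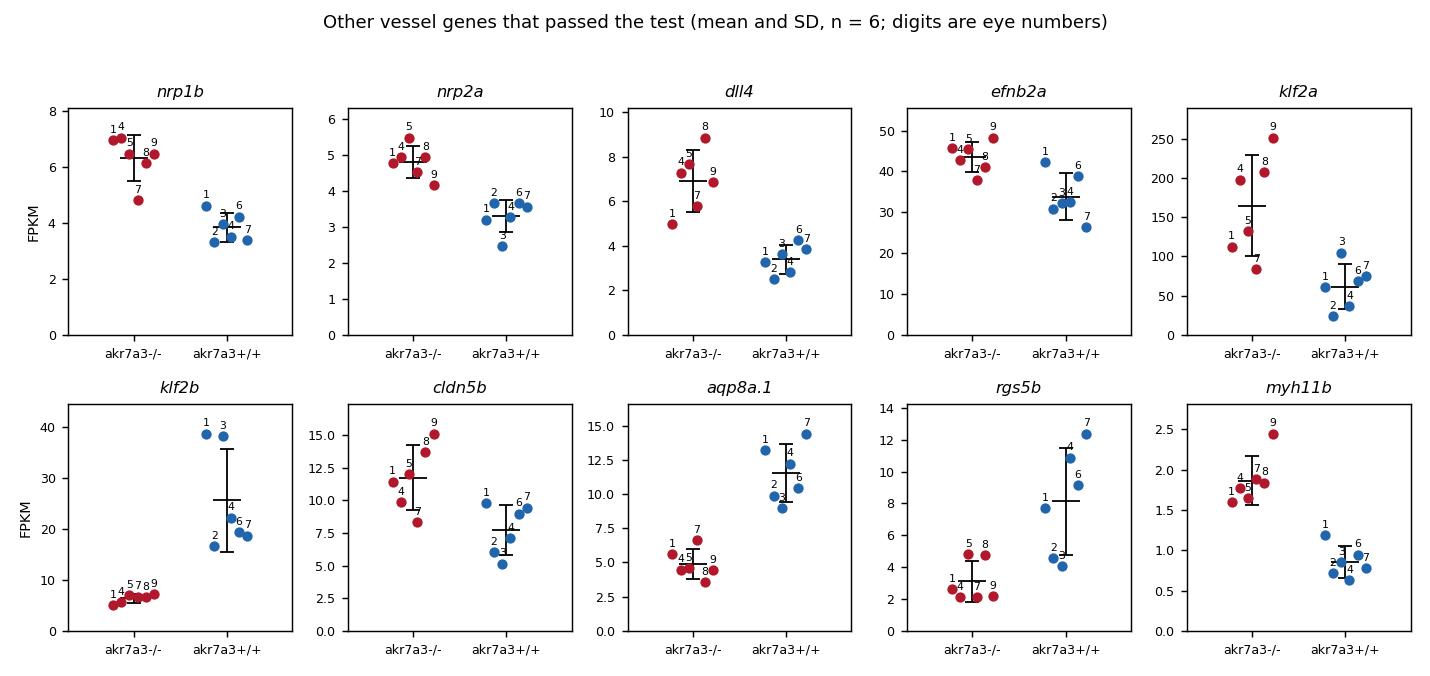
FPKM (vertical axes, each starting at 0) of 10 of the 15 other vessel genes that passed the test, in the 6 akr7a3-/- eyes (red, left) and the 6 akr7a3+/+ eyes (blue, right) of each panel; each point is 1 eye with its number, and the black bars give the mean and SD. nrp1b, nrp2a, dll4 and myh11b are higher in every akr7a3-/- eye than in any akr7a3+/+ eye, and klf2b and aqp8a.1 are lower.

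Of 33 tested genes of the endothelial surface and junction 1 was higher, 2 were lower and 30 did not pass. Of all tested genes 5.78% were higher and 5.77% lower. aqp8a.1, a water channel gene, averaged 4.89 ± 1.08 FPKM in akr7a3-/- eyes and 11.5 ± 2.11 FPKM in akr7a3+/+ eyes (SD, n = 6 per genotype), without overlap (log2 fold change -1.17, limma adjusted p = 0.000242). gpr182, a receptor gene of the endothelium, averaged 6.82 ± 0.768 FPKM in akr7a3-/- eyes and 9.59 ± 0.915 FPKM in akr7a3+/+ eyes, also without overlap (log2 fold change -0.46, limma adjusted p = 0.00409). Groups that did not overlap with akr7a3-/- lower were found in 3.06% of all tested genes.

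cldn5b, a claudin gene of the tight junction, averaged 11.7 ± 2.48 FPKM in akr7a3-/- eyes and 7.75 ± 1.93 FPKM in akr7a3+/+ eyes (SD, n = 6 per genotype; log2 fold change 0.58, limma adjusted p = 0.0473). This call was lost when any of 8 eyes was left out, of the 12 tried, with an adjusted p of up to 0.1004, and without the filter on low values (limma adjusted p = 0.0667). Its copy cldn5a had a log2 fold change of -0.15 (limma adjusted p = 0.713). The log2 fold changes of the 33 genes lay between -1.17 and 0.58 with a median of 0.04, above 0 for 19 and below 0 for 14. Of 7 tested lymphatic markers, flt4 included, 0 passed, with a median log2 fold change of -0.09.

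Of 20 mural cell markers, genes of the pericytes and smooth muscle cells that wrap vessels, 1 was higher, 4 were lower and 15 did not pass. Of all tested genes 5.78% were higher and 5.77% lower. The median log2 fold change of the 20 markers was 0.03. The pericyte receptor gene pdgfrb averaged 7.43 ± 0.984 FPKM in akr7a3-/- eyes and 6.92 ± 0.644 FPKM in akr7a3+/+ eyes (SD, n = 6 per genotype; limma adjusted p = 0.553). myh11b, a smooth muscle myosin gene, averaged 1.86 ± 0.307 FPKM in akr7a3-/- eyes and 0.852 ± 0.197 FPKM in akr7a3+/+ eyes, without overlap (log2 fold change 0.81, limma adjusted p = 0.000763), and its copy myh11a had a log2 fold change of 0.06 (limma adjusted p = 0.814).

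The 4 mural genes that were lower were rgs5b, a regulator of G protein signalling, the forkhead factor genes foxc1a and foxc1b, and the desmin gene desma. rgs5b averaged 3.10 ± 1.31 FPKM in akr7a3-/- eyes and 8.12 ± 3.35 FPKM in akr7a3+/+ eyes (SD, n = 6 per genotype; log2 fold change -1.23, limma adjusted p = 0.0154), while its copy rgs5a, the more abundant one, averaged 86.0 ± 16.7 FPKM in akr7a3-/- eyes and 65.7 ± 15.9 FPKM in akr7a3+/+ eyes (log2 fold change 0.40, limma adjusted p = 0.157). foxc1b and foxc1a, which the mesenchyme around the eye also expresses, had log2 fold changes of -0.85 (limma adjusted p = 0.00634) and -0.49 (limma adjusted p = 0.0194).

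desma, which all muscle expresses, averaged 8.01 ± 2.13 FPKM in akr7a3-/- eyes and 17.8 ± 4.16 FPKM in akr7a3+/+ eyes (SD, n = 6 per genotype; log2 fold change -1.11, limma adjusted p = 0.00128). Of 14 tested muscle markers 10 were lower and 0 higher in akr7a3-/- eyes, beside 5.77% and 5.78% of all tested genes. The median log2 fold change of the 14 was -0.78, and 0 of the 18 markers in the table were at 0 in any eye. Their sum ran between 741 and 1057 FPKM in akr7a3-/- eyes and between 872 and 2044 FPKM in akr7a3+/+ eyes. The part of muscle tissue in the value of desma was not tested.

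Markers of other cells were read from the same test, in which 5.78% of all tested genes were higher in akr7a3-/- eyes and 5.77% lower. Of 16 photoreceptor markers 4 were higher and 2 lower in akr7a3-/- eyes, with log2 fold changes between -1.41 and 1.06. They summed to between 39591 and 46271 FPKM in akr7a3-/- eyes and between 23497 and 36527 FPKM in akr7a3+/+ eyes, without overlap, and 0 of them were at 0 in any eye. More than any other of them, rho made up this sum. It ran between 22078 and 28815 FPKM in akr7a3-/- eyes and between 11164 and 21782 FPKM in akr7a3+/+ eyes. The genotypes thus did not overlap for rho, though it did not pass the test (limma adjusted p = 0.287). The other 15 summed to between 15673 and 19939 FPKM in akr7a3-/- eyes and between 10321 and 15293 FPKM in akr7a3+/+ eyes. The 11 red cell markers summed to between 974 and 1875 FPKM in akr7a3-/- eyes and between 192 and 1512 FPKM in akr7a3+/+ eyes, with overlap, and hbaa2 was at 0 in at least 1 eye. By the test 1 of 11 was higher, and 0 of 11 without the akr7a3-/- eye 1. Of the 11, 10 had a log2 fold change above 0. The median log2 fold change of the 11 was 0.73, and 0.80 without that eye. The 15 lens markers had a median log2 fold change of -1.25 with 0 of 15 passing, and of -0.53 with 1 of 15 lower without the akr7a3-/- eye 1, the eye with few lens transcripts. Of 7 tested Mueller glia markers 1 was higher and 0 lower, with a median log2 fold change of 0.24. Of 9 pigment epithelium markers 1 was lower and 0 higher, with 8 below 0 and a median of -0.17. Of 9 tested cornea markers 0 passed, with a median of -0.06. The part of these cells in the values of nrp1b, nrp2a, dll4 and the ephrin genes was not tested. None of the 10 endothelial and vegf genes, and none of the 15 other vessel genes that changed, is placed on the chromosome of akr7a3 in GRCz12tu.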

How the data were processed

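RNA of 12 adult zebrafish eyes was analysed, 6 of each genotype as given in the labels. The authors used HISAT2 for mapping to GRCz11 and featureCounts 2.0.3 for counting, and the deposited values are FPKM. The gene annotation and how counting treated strand and shared reads are not given in the sources used here, so that values of near-identical copies and of overlapping genes are uncertain. The 10 genes and the lists were chosen with earlier results of these data known.

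The 18473 of 25432 genes that reached 0.5 FPKM in 6 or more of 12 eyes entered limma 3.58.1 (R 4.3.3, variance trend) on log2(FPKM + 0.5) with genotype alone, with Benjamini-Hochberg adjustment over all of them. On this scale the change of low genes is understated. Log2 ratios within eyes were tested with two-sided exact permutation tests, and the smallest p that 6 eyes against 6 can give is 0.00216. Whole reads were recovered from the steps of the FPKM values for all 25432 genes, within a tolerance of 0.05 reads, and served for the depth and for voom. The steps were tested on simulated data. No eyes of a genotype were near-identical, the lowest chi-square over its degrees of freedom being 26.6 in 30 pairs.

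The genes named are akr7a3, the 10 genes, each gene of the vessel lists that passed the test, and the 5 genes most like cdh5, kdrl and vegfaa. Their copies and other genes that did not pass, and the neighbours of tek and the genes most like it, were named after their values were seen. Alternatives were median-of-ratios scaling, pseudocounts of 0.1 and 1, no filter, at least 1 FPKM in every eye, each eye left out, a block on the shared replicate numbers, and voom.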

Additional observations from a re-analysis of the deposited data

Results flagged for a closer look

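Of 58 groups of 6 eyes examined, 4 held an eye that stood far from the other 5 of its genotype by Dixon's criterion, where chance gives about 1 in 20 groups. vegfaa was at 8.53 FPKM in the akr7a3+/+ eye 1, against 5.42 to 6.32 FPKM in the other akr7a3+/+ eyes. tek was at 9.87 FPKM in the akr7a3-/- eye 1, against 3.71 to 5.86 FPKM in the other akr7a3-/- eyes, and this is the eye with few lens transcripts. desma was at 25.9 FPKM in the akr7a3+/+ eye 1, against 14.7 to 17.9 FPKM in the other akr7a3+/+ eyes. myh11b was at 2.45 FPKM in the akr7a3-/- eye 9, against 1.60 to 1.89 FPKM in the other akr7a3-/- eyes.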

How the results depend on the processing

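The number of the 10 genes that changed was 0 under median-of-ratios scaling, both other pseudocounts, both other filters and voom (9 of the 10 were tested with at least 1 FPKM in every eye, since flt1 was below it), where the whole table gave 1925 to 2316 changed genes, and it ran from 0 to 2 over the 12 fits that each left out 1 eye, with 2 without the akr7a3+/+ replicate 6. In those 12 fits the whole table gave 1518 to 2029 changed genes and the vessel lists 13 to 18, against 15 in all eyes. Directions turned for values near 0: the log2 fold change ran from -0.079 to 0.036 for vegfab, -0.047 to 0.060 for flt1 and -0.12 to 0.040 for pecam1, and the log2 ratio of vegfaa over vegfab ran from -0.19 to 0.042. For flt1 it was -0.0055 with voom. Only the numbers 1, 4 and 7 are shared by both genotypes, and eyes of the same number deviated with r of 0.08, -0.20 and 0.07. The akr7a3+/+ eye most like the akr7a3-/- eye 1 was that of the same number, which did not hold for eyes 4 and 7. In the 6 eyes of the shared numbers with the replicate block 1 gene of the whole table changed, 0 of the 10 and 0 of the vessel lists, and flt1 was at -0.15. Without the block, a fit chosen after seeing the data, the same 6 eyes gave 126, 0 and 3. These fits hold fewer eyes. flt1 rests on as few as 70 reads in an eye; the intervals given for the 10 genes show which differences these 6 eyes a genotype leave possible.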

Other observations

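Beside ift74, the genes whose levels most resembled tek over the 12 eyes were not its neighbours. zgc:158398 (r = 0.95, rho = 0.96), acy3.2 (r = 0.94, rho = 0.90), ndufaf2 (r = 0.90, rho = 0.87) and tlr8a (r = 0.90, rho = 0.89) are placed on other chromosomes in GRCz12tu, and zgc:158398 averaged 12.5 ± 0.805 FPKM in akr7a3-/- eyes and 10.8 ± 1.09 FPKM in akr7a3+/+ eyes (SD, n = 6 per genotype). These are the highest values among all tested genes, chosen after the values of tek were seen, and describe these libraries alone.

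Among 12 markers of macrophages and microglia, marco, a scavenger receptor gene of macrophages, was the 1 that was lower (limma adjusted p = 0.0189). Of all tested genes 5.77% were lower and 5.78% higher. marco averaged 4.55 ± 1.83 FPKM in akr7a3-/- eyes and 9.98 ± 3.59 FPKM in akr7a3+/+ eyes. From the same list, mpeg1.1 averaged 6.02 ± 2.31 FPKM in akr7a3-/- eyes and 6.27 ± 2.47 FPKM in akr7a3+/+ eyes (SD, n = 6 per genotype). gp9, a thrombocyte gene, averaged 3.91 ± 0.861 FPKM in akr7a3-/- eyes and 2.28 ± 0.779 FPKM in akr7a3+/+ eyes. It was the 1 of 5 tested thrombocyte markers that was higher (limma adjusted p = 0.0446). Without the akr7a3-/- eye 1, 0 of the 5 were higher. marco and gp9 were named after their values were seen.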
